A study of Mus musculus with 2 samples.

Results

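The Meis and Pbx homeobox cofactors were followed here as 7 genes, Meis1, Meis2, Meis3, Pbx2, Pbx3, Pbx4 and Pknox1, out of 20722 protein-coding genes on chromosomes 1 to 19. A gene was given every accessible region within 1 kb of one of its transcript starts (a promoter region). It was also given every other region whose nearest protein-coding start, within 100 kb, was its own (a distal region). This left 27 of 65789 regions, of which 7 were promoter and 20 distal regions. Accessible chromatin had been mapped by ATAC-seq, in which a transposase inserts sequencing adapters into open DNA, in common myeloid progenitors, bone marrow cells that give rise to erythroid, megakaryocytic, granulocytic and monocytic cells. Cells of C57BL/6J males aged 5 to 6 weeks had been used as primary cells, with 50000 cells in each of 2 libraries. Both libraries belonged to 1 group without a control or treatment and carried the same donor label. Nothing named separate animals, so differences between replicate 1 and replicate 2 may be technical.

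Meis, Pbx and Pknox proteins are TALE homeodomain proteins, a class set apart by extra residues in a loop of the homeodomain. Meis and Pknox proteins bind Pbx proteins, which governs where Pbx is held in the cell, and the dimers bind DNA with many Hox proteins. In blood, Meis1 is needed by stem and early progenitor cells, falls during myeloid differentiation, and cooperates with Hoxa9 and Pbx3 in leukaemia.

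The data were peak lists without read counts, so the depth of each library is unknown. Own lists numbered 46420 regions for replicate 1 and 36740 for replicate 2. Signal is the deposited value of a peak's strength, whose scale is not stated, and percentiles below rank a region's signal among all promoter or all distal regions of the same list. Lists had been cut at an irreproducible discovery rate (IDR) of 0.05, a −log10 IDR of 1.30, between the 2 replicates for the main list and within a replicate for its own list. Of the progenitor markers on these chromosomes, Kit, Cd34, Spi1, Cebpa and Mpo, 5 of 5 had a promoter region in the main list. So had 4 of 4 erythroid and megakaryocytic markers (Klf1, Epor, Itga2b, Pf4), against 62% of all genes. Each replicate's own list held 4 of the 5 progenitor markers, without Mpo. Of the 4 erythroid and megakaryocytic markers, replicate 1's own list held 4 and replicate 2's held 3, without Klf1. Among all genes, these own lists held promoters of 57.4% (replicate 1) and 53% (replicate 2). No promoter region was found at 3 mature neutrophil, 4 B and T cell and 3 other-tissue markers.

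The sequences at the strongest point of selected regions are shown first, because the member proteins' own motifs and those of blood factors could be read in them. Each window spans 50 bp on both sides of the summit in GRCm38.p6 (mm10) and is printed along the transcription strand of the named gene. Capitals mark exact matches, on either strand, to the motifs searched. These included MEIS (TGACAG), the PBX-MEIS composite (TGATTGAC), PU.1 (GAGGAAGT), the GATA motif (AGATAA, also in the form TGATAA), the E-box (CAGCTG, also in the form CAGATG), AP-1 (TGANTCA), C/EBP (TTGCNNAA), CTCF (CNAGGGGGC or CNAGGTGGC) and NFY (CCAAT). Of the members' distal windows, those with a MEIS or PBX-MEIS match are listed first.
Meis1 93.6 kb downstream, chr11:18925082-18925182, minus strand: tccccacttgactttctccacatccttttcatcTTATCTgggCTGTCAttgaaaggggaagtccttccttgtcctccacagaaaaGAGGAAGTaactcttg
Meis1 69.7 kb downstream, chr11:18949007-18949107, minus strand: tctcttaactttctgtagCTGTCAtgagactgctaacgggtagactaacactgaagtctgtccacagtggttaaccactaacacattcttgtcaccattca
Meis1 21.8 kb downstream, chr11:18996893-18996993, minus strand: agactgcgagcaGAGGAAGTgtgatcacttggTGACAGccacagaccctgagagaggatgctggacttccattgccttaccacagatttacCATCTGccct
Meis1 93.4 kb upstream, chr11:19112328-19112428, minus strand: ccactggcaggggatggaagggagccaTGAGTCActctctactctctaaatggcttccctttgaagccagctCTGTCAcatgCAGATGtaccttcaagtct
Meis2 5.83 kb upstream, chr2:116071616-116071716, minus strand: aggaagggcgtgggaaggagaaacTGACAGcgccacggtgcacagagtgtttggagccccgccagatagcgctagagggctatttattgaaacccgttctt
Meis2 1.35 kb upstream, chr2:116067137-116067237, minus strand: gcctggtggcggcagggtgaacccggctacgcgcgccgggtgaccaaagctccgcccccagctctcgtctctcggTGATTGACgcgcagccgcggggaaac

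The next windows are the other Meis1 regions listed by replicate 2 alone, a Meis1 intronic region with a GATA match listed by both, the strongest region of any member (Pbx3), and the Meis3 region with a CTCF match.
Meis1 60.8 kb downstream, chr11:18957894-18957994, minus strand: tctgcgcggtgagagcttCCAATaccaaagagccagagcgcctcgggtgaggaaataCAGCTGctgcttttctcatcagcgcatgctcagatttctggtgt
Meis1 55.3 kb downstream, chr11:18963341-18963441, minus strand: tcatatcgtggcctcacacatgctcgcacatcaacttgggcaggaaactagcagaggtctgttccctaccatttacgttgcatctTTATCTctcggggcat
Meis1 10.4 kb downstream, chr11:19008261-19008361, minus strand: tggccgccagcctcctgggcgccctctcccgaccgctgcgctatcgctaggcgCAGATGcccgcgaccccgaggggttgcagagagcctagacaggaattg
Meis1 48.6 kb downstream, chr11:18970055-18970155, minus strand: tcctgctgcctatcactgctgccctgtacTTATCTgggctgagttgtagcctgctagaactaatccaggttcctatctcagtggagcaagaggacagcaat
Pbx3 10.9 kb downstream, chr2:34360161-34360261, minus strand: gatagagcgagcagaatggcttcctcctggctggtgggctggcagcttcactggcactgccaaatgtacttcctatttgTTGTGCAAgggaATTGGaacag
Meis3 17.2 kb downstream, chr7:16192539-16192639, plus strand: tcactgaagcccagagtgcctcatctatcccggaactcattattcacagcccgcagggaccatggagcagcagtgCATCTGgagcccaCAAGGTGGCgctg

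Meis1, the member best known in blood stem and progenitor cells, had 1 promoter and 11 distal regions, the most of the 7 genes. Its promoter region (chr11:19018568-19019216) had its summit 28 bp upstream of a start. The signal there was 8.06 in the conservative list, 7.15 in replicate 1 and 8.47 in replicate 2. Both replicates thus listed the promoter, in the lower part of all promoter regions, at percentiles of 38.8, 25.4 and 31.0 in that order. Its rank by promoter signal was thus below the middle, and its rank by distal count was high. At least 11 distal regions were held by 520 genes, 2.51% of all, Meis1 included, against a median of 1 and a mean of 2.12 per gene.

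Of the 11 distal Meis1 regions, 8 lay in introns of the gene and 3 upstream in intergenic DNA. Intron 7 held 5 of them (69.7, 60.8, 55.3, 48.6 and 34.7 kb downstream of the start), intron 6 held 2 (21.8 and 10.4 kb) and intron 8 held 1 (93.6 kb). The intergenic regions stood 1.51, 8.45 and 93.4 kb upstream. Both replicates listed 5 regions, replicate 2 alone 5, and neither 1.

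The 5 distal Meis1 regions in both replicates' lists were the stronger ones with 1 exception. The region 93.6 kb downstream had a signal of 11.5 (percentile 81.5), with 10.7 in replicate 1 and 11.1 in replicate 2. Its window holds MEIS, GATA and PU.1 matches. The region 48.6 kb downstream had 10.5, with 10.996 in replicate 1 and 10.8 in replicate 2. The one 69.7 kb downstream had 10.4, with 9.90 and 9.65, and the one 8.45 kb upstream had 10.3, with 10.1 and 9.80. These 4 stood between the percentiles of 72.8 and 81.5. The exception was the region 1.51 kb upstream, with a signal of 6.33 (percentile 25.0), 5.72 in replicate 1 and 6.80 in replicate 2.

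**Figure D1:**
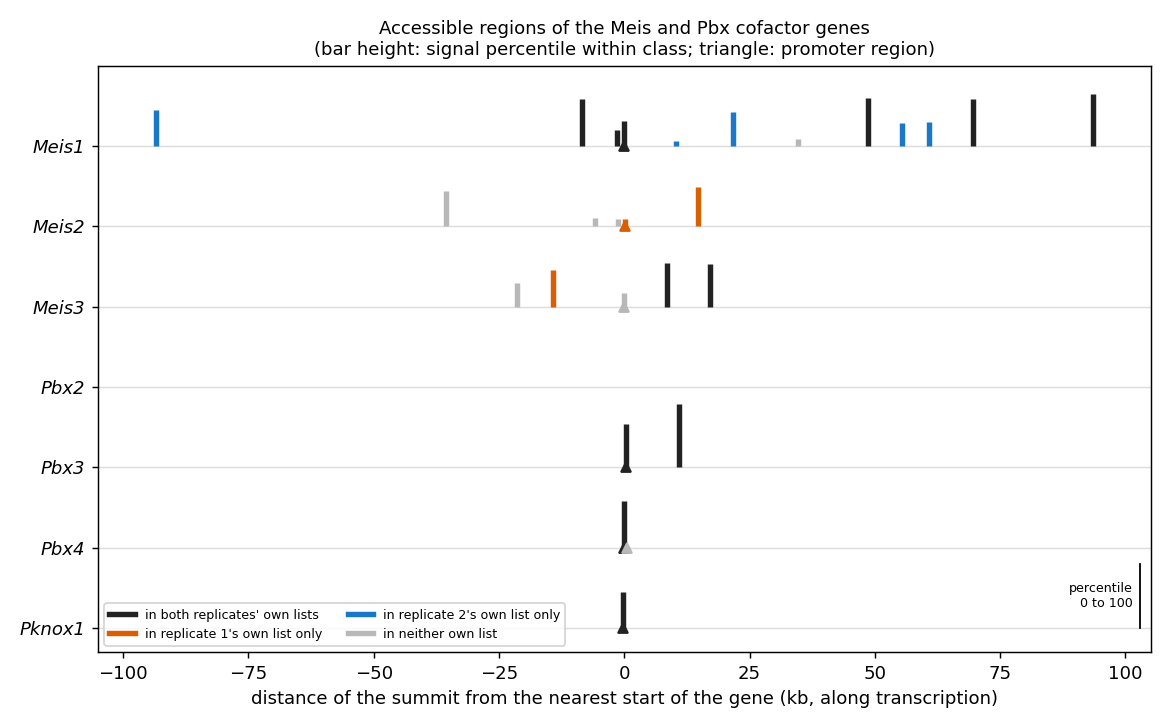
Each bar is 1 accessible region of the conservative list, placed by the distance of its summit from the nearest start of its gene in kb along transcription, with bar height giving the signal percentile within its class (promoter or distal). Colour gives the replicates' own lists that hold the region: the 5 blue bars, listed by replicate 2 alone, are all at Meis1, Pbx2 has no bar, and the tallest bar is the Pbx3 region 10.9 kb downstream.

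The 5 distal regions of Meis1 that replicate 2 alone listed were the only members' regions in that class, against 4.89% of all distal regions. The reverse class, replicate 1 alone, held 0 of its 11, against 19% of all distal regions. Both own lists held 44.4% of all distal regions and neither list 31.7%. Replicate 2's own list gave Meis1 10 distal regions and replicate 1's gave it 5, although replicate 2's list is the shorter. Of the other 519 genes with at least 11 distal regions, 33 (6.36%) had more in replicate 2's own list, 415 had more in replicate 1's, and 71 had equal numbers. None of these genes had 5 or more extra regions in replicate 2, the margin at Meis1. Those 519 genes had medians of 9 distal regions in replicate 1's own list and 7 in replicate 2's.

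The 5 regions had peaks in both replicates, and their IDR passed the threshold in replicate 2 alone. All 5 were in both replicates' full ranked lists, which hold peaks on either side of the threshold. All 11 distal Meis1 regions were in both replicates' pseudoreplicated lists, as were 94.1% of all regions. Peaks in both replicates are thus not particular to Meis1, and the main list was itself cut on the IDR between the replicates. In replicate 1 the −log10 IDR was 1.16, 0.598, 0.692, 1.29 and 1.23 for the regions 60.8, 55.3, 21.8 and 10.4 kb downstream and 93.4 kb upstream. In replicate 2 it was 1.41, 1.46, 1.93, 1.44 and 1.39 in the same order. The 2 sets do not overlap, since the threshold of 1.30 separates them by the choice of the class, and in replicate 1 the lower ones stood well below it (0.598 and 0.692) and the other 3 close to it.

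Signal did not follow the same split. The region 60.8 kb downstream had a ranked-list signal of 7.55 in replicate 1 and 5.76 in replicate 2, and the region 55.3 kb downstream had 6.64 and 6.57. The region 21.8 kb downstream had 6.65 and 9.21, which was the widest ratio of the 5 in favour of replicate 2, at 1.38. The regions 10.4 kb downstream and 93.4 kb upstream had 4.64 and 5.17, and 7.03 and 8.18. Signal was higher in replicate 2 at 3 of the 5, and the deposited −log10 p was higher in replicate 1 at 3 of the 5. Across all 11 distal regions the ranked signal was higher in replicate 2 at 5. Of all 33320 regions in both own lists, 64.0% had the higher signal in replicate 2, by own-list and not ranked-list signal. No share over all regions was computed for the ranked signal or the −log10 p. Sequencing depth could not be compared, since no list holds read counts, nor could instruments, which are named for replicate 1 alone. The part of depth and instrument in the difference was not tested.

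**Figure D2:**
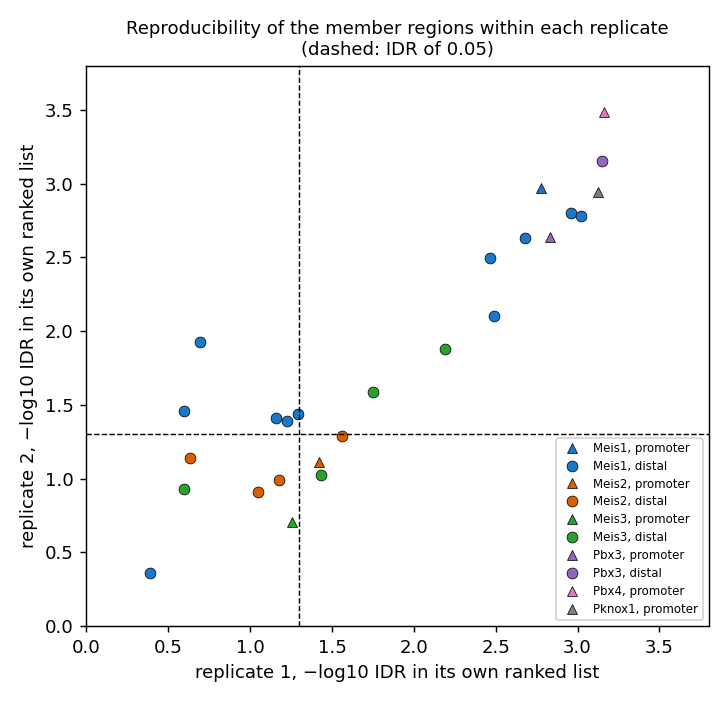
Each point is 1 member region, with its −log10 IDR in replicate 1's own ranked list on the x axis and in replicate 2's on the y axis; circles are distal regions, triangles promoter regions, colours genes and dashed lines the IDR threshold of 0.05. The 26 regions ranked in both lists are drawn, and the upper left quadrant holds the 5 distal Meis1 regions between 1.39 and 1.93 in replicate 2 and between 0.598 and 1.29 in replicate 1.

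Distal Meis1 regions were broad and often had several summits. Their median width was 865 bp, against 456 bp over all distal regions, and 7 of 11 (63.6%) had been merged from more than 1 peak, against 29.8% of all distal regions. The single region listed by neither replicate, 34.7 kb downstream, had a signal of 5.20 (percentile 10.7). The 10.4 kb region lay by the start of the noncoding gene Gm16140 and had a signal of 4.83 (percentile 7.47), the lowest of the 11.

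The territory of Meis1, meaning the DNA within 100 kb to which its starts are the nearest, measured 198 kb and was cut by no neighbour, since Etaa1 starts 1065 kb and Spred2 905 kb away. Its 11 regions put it at the 90.9th percentile of the 1066 genes with a territory within 10% of that length, whose median was 3 regions. Among 129 other genes with 11 distal regions, 5 had a territory of the same length, Egln3, Ext1, Hmga2, Pcdh7 and Rybp. Replicate 1's and replicate 2's own lists gave these 6 and 4 (Egln3), 9 and 9 (Ext1), 7 and 4 (Hmga2), 6 and 4 (Pcdh7), and 8 and 6 (Rybp). None of the 5 had more distal regions in replicate 2.

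**Figure D3:**
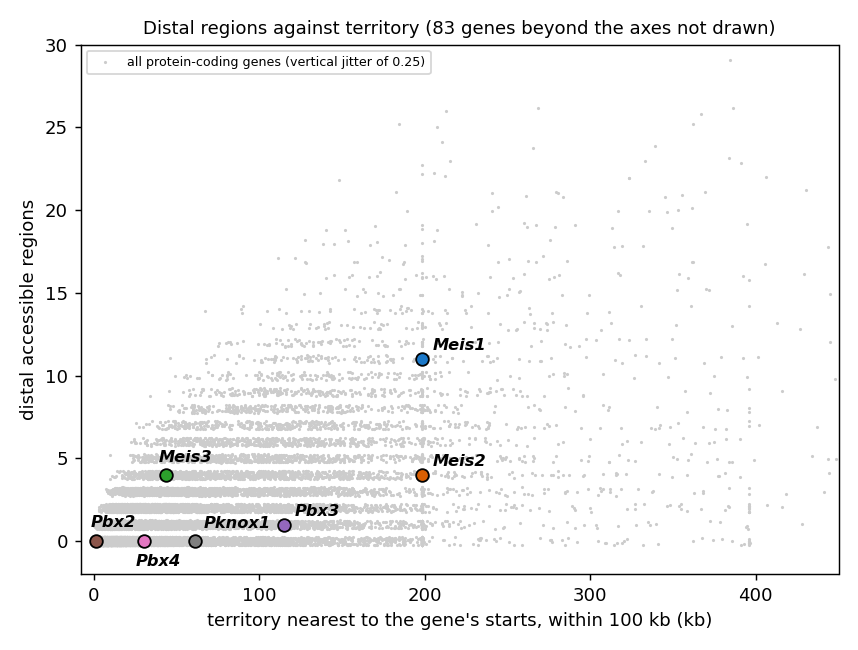
Each grey point is 1 protein-coding gene and each large point 1 member, with the length of the territory in kb on the x axis and the number of distal regions in the conservative list on the y axis. Meis1 and Meis2 have the same territory of 198 kb with 11 and 4 regions, Meis3 has 4 in 43.7 kb, and Pbx4, Pknox1 and Pbx2 have 0.

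Meis2, which acts in limb, heart and neural development, had 1 promoter and 4 distal regions. The promoter region (chr2:116065604-116065871) had a summit 77 bp downstream of a start, in an exon, and a signal of 5.12 (percentile 11.95). Replicate 1 listed it at 4.80 and replicate 2 did not, where its ranked signal was 4.95 with an IDR of 0.0769. The promoter was thus of nearly equal signal in both and passed the IDR threshold in 1 (IDR 0.0380 in replicate 1).

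No distal Meis2 region was in replicate 2's own list. The region 14.7 kb downstream, in intron 6, had a signal of 9.09 (percentile 61.0), with 8.11 in replicate 1's list. In replicate 2 it missed the threshold by little, with a −log10 IDR of 1.29 and a ranked signal of 7.80. The other 3 were in neither list. They lay 1.35 kb (signal 5.21), 5.83 kb (5.38) and 35.6 kb (8.54) upstream. The first is close to the starts of the noncoding genes 2700033N17Rik and G630016G05Rik. Meis2 has a territory of 198 kb, as Meis1 has, and its 4 regions put it at the 56.6th percentile of genes with a like territory.

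Meis3, a hindbrain patterning factor of the same subfamily, had 1 promoter and 4 distal regions. Its promoter region (chr7:16175000-16175481) had a signal of 6.26 (percentile 21.9) with a summit 73 bp upstream of a start. It was in neither own list, with a ranked signal of 5.36 in replicate 1 (IDR 0.0553) and 5.01 in replicate 2 (IDR 0.197). Between the replicates its IDR was 0.0313, which passed the threshold, and it was in both replicates' pseudoreplicated lists.

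All 4 distal regions of Meis3 had a higher signal than its promoter in the conservative list. The region 8.44 kb downstream, in intron 9, had a signal of 9.73, with 9.06 in replicate 1 and 8.65 in replicate 2. The intergenic region 17.2 kb downstream had 9.55, with 8.57 and 8.92, and its window holds a CTCF match. Both were listed by both replicates and stood at percentiles of 67.7 and 65.8. The region 14.2 kb upstream lay in an exon of the neighbour Slc8a2 and had a signal of 8.78, with replicate 1 alone listing it at 7.82. The region 21.4 kb upstream, in an intron of Slc8a2, had 7.23 and was in neither list. The territory of Meis3 measured 43.7 kb, with Slc8a2 44.7 kb and Dhx34 46.6 kb away. In it, 4 regions amount to 9.16 per 100 kb, against 5.56 for Meis1, and to the 89.6th percentile of 1365 genes with a like territory, whose median was 1. Of the 4, 2 lie inside Slc8a2, so their assignment rests on the nearest start alone.

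Pbx3, the Pbx member tied to Hoxa9 and Meis1 in leukaemia, had 1 promoter and 1 distal region, both in both replicates' lists. Its promoter region (chr2:34372416-34373409) had a signal of 11.3 (percentile 67.1), with 10.3 in replicate 1 and 10.4 in replicate 2. The summit lay 308 bp downstream of a start, in an intron. The distal region (chr2:34359604-34360661) lay 10.9 kb downstream in intron 2. It had the highest signal of all 27 member regions, at 18.9 (percentile 99.4), with 16.5 in replicate 1 (98.9) and 17.8 in replicate 2 (99.2). It spanned 1058 bp, was merged from 3 peaks, and its window holds a C/EBP match and an NFY match. Only this region was given to Pbx3 over a territory of 115 kb, which put the gene at the 24.0th percentile of 1364 genes with a like territory, whose median was 3.

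Pbx4, a Pbx gene best known from testis, had 2 promoter and 0 distal regions. The main promoter region (chr8:69832117-69832919) had a signal of 11.96 (percentile 72.4) with its summit 42 bp upstream of a start. It reached 10.7 in replicate 1 and 12.7 in replicate 2, the highest promoter signal of any member in each of the 3 lists. The second region (chr8:69833006-69833356), 449 bp downstream in intron 1, had a signal of 3.39 (percentile 1.32). It was the only member region found in neither replicate's ranked or pseudoreplicated list. Its territory was 30.5 kb, with a median of 1 distal region over 1354 genes of like territory.

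Pbx2, a broadly expressed Pbx gene, had no region in the conservative list. A peak at its promoter (chr17:34592023-34592392, summit 24 bp upstream of a start) had a signal of 5.48 and an IDR of 0.0607 between the replicates, just past the threshold of 0.05. In replicate 1 its signal was 5.84 with an IDR of 0.00996, which passed, and in replicate 2 it was 4.20 with an IDR of 0.229, which did not. Pbx2 thus lacked a promoter region by a narrow margin and in 1 replicate. Its territory measured 1.23 kb, because Gpsm3 starts 1.04 kb and Ager 4.47 kb away, so that almost no distal region could be given to it.

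Pknox1, also called Prep1, a Pbx-binding TALE protein expressed in most tissues, had 1 promoter and 0 distal regions. Its promoter region (chr17:31564067-31565018) had a signal of 10.01 (percentile 56.2), with 9.35 in replicate 1 and 9.69 in replicate 2. In replicate 2 it was split into 2 regions. The summit in the conservative list lay 268 bp upstream of a start. The edges of that region were within 1 kb of the starts of the noncoding genes AC166172.2, AC166172.4 and Gm24970, or enclosed them. The territory measured 61.0 kb, and 1263 genes of like territory had a median of 2 distal regions.

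Over the family, 6 of 7 genes had a promoter region in the conservative list, where 62% of all genes had one. Replicate 1's own list had 6 (57.4% of all genes), the exception being Meis3, and replicate 2's own list had 4 (53% of all genes), without Meis2, Meis3 and Pbx2. All 7 had one in the series IDR-thresholded list (61.8% of all genes) and in the pooled pseudoreplicated list (69.8% of all genes). Pbx3, Pbx4, Pknox1 and Meis1 were thus found in each of these lists, and Meis2, Meis3 and Pbx2 were the members at the edge of detection. The order of promoter signal in the conservative list was Pbx4, Pbx3, Pknox1, Meis1, Meis3 and Meis2. It was the same in both own lists for the 4 genes listed in both. In replicate 1, Pbx4 and Pbx3, at 10.7 and 10.3, differed by less than Pbx4 did between the replicates (10.7 and 12.7). Pbx3 and Pknox1, at 10.3 and 9.35 in replicate 1 and 10.4 and 9.69 in replicate 2, differed by more than either did between the replicates.

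Of the 27 regions, 12 (44.4%, exact 95% binomial interval 25.5 to 64.7, over regions and covering counting error only) were in both replicates' own lists, against 50.6% of all regions. The interval takes regions as independent, although 12 of the 27 belong to Meis1 and all come from the same 2 libraries. Of the 7 promoter regions, 4 were in both lists (73% of all promoter regions), 1 was in replicate 1's only (11.1%), 0 in replicate 2's only (2.06%) and 2 in neither (13.9%). Of the 20 distal regions, 8 were in both (44.4% of all distal regions) and 2 in replicate 1's only (19%). Replicate 2's only held 5 (4.89%), all at Meis1, and neither list held 5 (31.7%). The median signal percentile within class was 38.8 for the promoter and 55.6 for the distal regions. When the replicates' pseudoreplicated lists were used instead, 26 of 27 (96.3%) were in both, against 94.1% of all regions.

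At the 12 regions in both own lists, the replicates' signals ranged from 5.72 (Meis1, 1.51 kb upstream) to 16.5 (Pbx3, 10.9 kb downstream) in replicate 1 and from 6.80 to 17.8 in replicate 2, at the same regions. Replicate 2 was higher at 8 of 12 (66.7%), as it was at 64.0% of all 33320 shared regions. The Spearman correlation across the 12 regions was 0.958 and across all shared regions 0.884. These points are regions of the same 2 libraries, not replicates, and both values are a description.

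**Figure D4:**
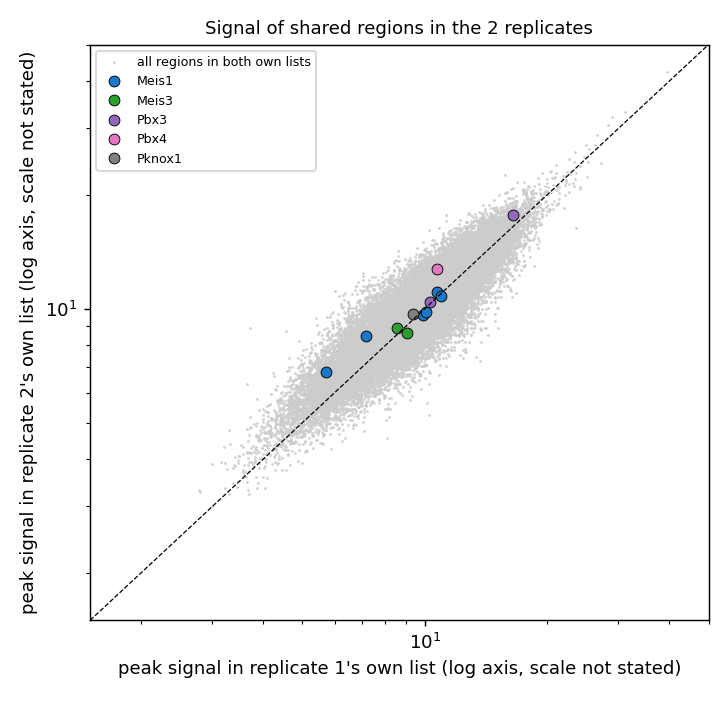
Peak signal in replicate 1's own list (x axis, log scale) is plotted against that in replicate 2's own list (y axis, log scale) for the 33320 regions in both lists (grey) and the 12 member regions among them (coloured by gene). The dashed line marks equal signal, and the Pbx3 region 10.9 kb downstream is the uppermost coloured point, at 16.5 and 17.8.

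The members' own motif was read at the distal summits. MEIS matched at 5 of 20 member windows, and 9.83% of all distal windows hold it. Of these, 4 are at Meis1 (93.6, 69.7 and 21.8 kb downstream and 93.4 kb upstream) and 1 at Meis2 (5.83 kb upstream). The regions 93.6 and 69.7 kb downstream of Meis1 were in both replicates' lists, and the regions 21.8 kb downstream and 93.4 kb upstream in replicate 2's only. The PBX-MEIS composite matched at 1 window, Meis2 1.35 kb upstream, and at 0.233% of all distal windows. The PBX-HOX composite (TGATTNAT) matched at 0 of 20, against 0.872%.

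Of the motifs of blood factors, GATA matched at 3 windows (12.8% of all distal windows), all in Meis1 introns, at 93.6, 55.3 and 48.6 kb. PU.1 matched at 2 (6.93%), both at Meis1, beside a MEIS match in each. The E-box matched at 7 (18.4%), of which 5 are at Meis1 and 2 at Meis3. RUNX (TGTGGTT) matched at 0 (8.70%), C/EBP at 1 (5.70%), at Pbx3, AP-1 at 1 (5.71%), at Meis1, and CTCF at 1 (5.85%), at Meis3. A match is a description of letters in a window and not of a factor bound there.

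At promoter summits, NFY matched at 4 of 7 windows (22.1% of all promoter windows), ETS (CCGGAAG) at 3 (8.79%) and SP (GGGGCGGGG) at 1 (8.32%). MEIS matched at 0, against 7.10%. The 1 SP summit match was at Pbx3, and the Pknox1 summit window held no match to the motifs searched. The 120 bp before the first annotated start are shown for the 4 genes whose promoter both replicates listed. These stretches differ from the summit windows counted above, and their own NFY and SP matches are in capitals.
Meis1 before the start, chr11:19018986-19019105, minus strand: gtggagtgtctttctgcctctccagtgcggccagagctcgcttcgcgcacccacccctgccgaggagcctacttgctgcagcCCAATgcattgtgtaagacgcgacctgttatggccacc
Pbx3 before the start, chr2:34373143-34373262, minus strand: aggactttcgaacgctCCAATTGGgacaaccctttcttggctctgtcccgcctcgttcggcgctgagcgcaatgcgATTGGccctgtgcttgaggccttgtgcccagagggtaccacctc
Pbx4 before the start, chr8:69832371-69832490, plus strand: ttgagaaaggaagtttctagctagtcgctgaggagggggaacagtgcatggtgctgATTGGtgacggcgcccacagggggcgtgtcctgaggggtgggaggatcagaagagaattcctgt
Pknox1 before the start, chr17:31564614-31564733, plus strand: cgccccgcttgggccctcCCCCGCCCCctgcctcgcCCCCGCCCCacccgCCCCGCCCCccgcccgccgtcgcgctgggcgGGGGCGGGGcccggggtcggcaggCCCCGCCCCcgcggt

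The Pknox1 stretch holds 5 SP matches and no NFY match. Pbx3 holds 3 NFY matches, 2 of them overlapping on opposite strands, and Meis1 and Pbx4 hold 1 each.

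The genes that work with the family were given by lists of partners, read here against the 62% of all genes with a promoter region and the median of 1 distal region per gene. Of 9 other TALE homeobox genes, 5 had a promoter region in the conservative list (Tgif1, Tgif2, Irx2, Irx5 and Mkx), with a median of 2 distal regions. Of 9 Hox partners, 5 had one (Hoxa7, Hoxa9, Hoxa10, Hoxb4 and Hoxb5), and the 9 had 3 distal regions in all. Hox genes stand close together, so their territories, such as 3951 bp at Hoxa9, leave little room for distal regions. The 4 genes of the MLL and menin complex and its partners, which act upstream of Hoxa9 and Meis1, all had a promoter region.

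Of 9 genes linked to Meis1 in leukaemia, all had a promoter region, where 62% of all genes had one, and they had a median of 8 distal regions and 78 in all, against a median of 1 over all genes. Mef2c had 18 distal regions in a territory of 331896 bp, Erg 17 in 267008 bp and Myb 10 in 125539 bp, all longer than the median territory over all genes of 42.04 kb. The part of territory length in these counts was not tested. In replicate 1's and replicate 2's own lists Mef2c had 10 and 8, Erg 10 and 6, and Myb 4 and 3. Hlf, with 3 and 4, was the 1 gene of this list with more distal regions in replicate 2, and the other 8 had as many or more in replicate 1. Meis1 had 5 and 10.

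The distal counts differed between the deposited lists, which also differ in length. The replicated list held 114557 regions, the pooled pseudoreplicated list 114370 and the archived replicated list 217607. The series IDR-thresholded list held 63566 and the conservative list 65789. Meis1 had 17 in the replicated list, 19 in the pooled pseudoreplicated list and 35 in the archived replicated list, and 9 in the series IDR-thresholded list. Meis2 had 7, 5, 17 and 3 in the same order, and Meis3 had 6, 4, 7 and 3. Pbx3 kept 1 in each except the archived list, where it had 4. Pbx4, with 0 in the conservative list, had 2, 3, 7 and 0, and Pknox1 had 3, 3, 8 and 0. Pbx2 had 0 in each.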

How the data were processed

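Of the mm10 peak lists deposited for the 2 libraries, replicates 1 and 2 of 1 group, 12 were used. Which aligner and caller were run, and whether reads were shifted for the transposase, is not given in the sources used here. The authors deposited for each peak a signal, whose scale is not stated, and a −log10 p; the ranked lists also carry a deposited −log10 IDR. No list holds read counts, so depth is unknown, no count test was possible, and the binomial interval is the only precision given.

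Overlapping peaks on chromosomes 1 to 19 were merged, keeping the strongest summit, and set against protein-coding starts of GENCODE M21. An overlap of 1 bp made a region shared between lists. The conservative list was the main one, as labelled. Motifs were 17 consensus strings, and a match counted on either strand. Members, lists and motifs were chosen with earlier results of these data known. Named were the 7 members and their regions, bounding genes, the partner and marker lists, and the 5 genes most like Meis1 in distal count and territory. The comparison of Meis1 with all genes of at least 11 distal regions was added after its values were seen. Alternatives were other peak lists, 1 replicate alone, the upper 50% of regions by signal, other windows and reaches, and other overlap rules. The methods were tested on simulated data. Python 3.11.15, NumPy 2.4.6, pandas 2.3.3, SciPy 1.17.1, pysam 0.24.0 and matplotlib 3.10.9 were used.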

Additional observations from a re-analysis of the deposited data

How the results depend on the processing

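The 27 regions became 47, 93 and 44 in the replicated, archived replicated and pooled pseudoreplicated lists, 15 in the upper 50% by signal, and 16 to 18 with 1 replicate's own list. Distal regions, 20 in the conservative list, numbered 36, 78 and 35 in those 3 lists, 12 in the upper 50%, and 10 to 13 with 1 replicate. Genes with a promoter region, 6 of 7, numbered 3 in the upper 50% and 4 to 6 with 1 replicate. The median percentile of 54.6 was 45.0 and 42.4 in the replicated and archived lists and 43.5 to 54.2 with 1 replicate. The share in both replicates was 44.4%, against 50.6% of all regions. With the pseudoreplicated lists it was 96.3%, against 94.1% of all regions. With equal numbers of strongest regions it was 40.7%, and the share over all regions was not computed. With 1 replicate required, it was 55.6% for replicate 1 (67.9% of all regions) and 63.0% for replicate 2 (54.9%). MEIS matches, 5 within 50 bp (9.83% of all distal windows), also numbered 5 within 100 bp, where 17.8% of all distal windows hold it. They numbered 10 over whole regions, against 35.6% of all distal regions. Meis1 had 5 distal regions without replicate 2 and 10 without replicate 1, 6 within 50 kb and 18 within 200 kb. The replicated, archived replicated and pooled pseudoreplicated lists held 114557, 217607 and 114370 regions in all, against 65789 in the conservative list. The own lists held 46420 (replicate 1) and 36740 (replicate 2). The cause of these shifts, list length included, was not tested. Promoter windows of 500 and 2500 bp left the counts at 27 regions and 6 genes. A changed window mainly moves a region between the promoter and distal classes, so the total was nearly bound to hold. At 2500 bp the regions 1.51 kb upstream of Meis1 and 1.35 kb upstream of Meis2 become promoter regions. The numbers of promoter and distal regions under these windows were not computed. No paired analysis was possible because there was only 1 group. The unknown depth limits every statement on absence: a gene without a region had none past the threshold.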

Other observations

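Regions farther than 100 kb from every start, and so outside the members' regions, continued at Meis1. Of 19 such regions whose nearest start was a member's, 15 belonged to Meis1, 3 to Pbx3 and 1 to Meis2, and the farthest stood 529 kb downstream of Meis1. Gene spacing limits this split. Meis3, Pbx2, Pbx4 and Pknox1 have a neighbour's start within 100 kb on both sides, so no such region could be given to them. Meis1 has the most room, with neighbouring starts 1065 and 905 kb away, against 483 and 813 kb at Meis2. The part of this room in the counts was not tested. Both replicates' own lists held 5 of the 15 Meis1 regions (44.4% of all distal regions) and replicate 1's only 3 (19%). Replicate 2's only held 1 (4.89%) and neither held 6 (31.7%). The larger number in replicate 2's list alone, seen within 100 kb of Meis1, was thus not seen beyond it. Several were stronger than any of the 11 within 100 kb. The region 137 kb upstream had a signal of 14.4 (percentile 94.1), the one 117 kb upstream 14.1 (93.3) and the one 197 kb downstream 13.9 (92.9), and all 3 were in both own lists. The nearest region outside the limit, 112 kb downstream, had a signal of 5.90 and was in neither list, whereas the farthest inside it, 93.6 kb downstream, had 11.5 and was in both. At Pbx3, the region 121 kb downstream had a signal of 12.1 (percentile 85.2) and was in both lists. The nearest start does not show which gene a region acts on.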
